A study of Mus musculus with 38 samples.

Results

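The comparison described here set 4T1 cultures that had received insulin-resistant (IR) adipocyte exosomes against untreated 4T1 cultures, with 3 libraries in each group. Its members are these 6 of the 38 samples of the series, chosen by their sample titles and taken from the deposited table of the culture experiment. The study concerns exosomes, the small vesicles that cells release, as a link from insulin-resistant fat cells to triple-negative breast cancer. The 4T1 line, from a mouse mammary carcinoma, serves as a model of it, and the adipocytes came from 3T3-L1 cells, a mouse fibroblast line that can be turned into fat cells. Cells were collected 72 h after the exosomes were added. A further 3 libraries, from 4T1 cultures that had received insulin-sensitive (IS) adipocyte exosomes, were used to ask which changes came with IR and not with IS exosomes. All 9 libraries come from 1 cell line. The control cells are labelled only as having had no treatment, and the labels give neither an exosome dose nor the way insulin resistance was produced. The part of anything else added with the exosomes was not tested. Replicates are called biological without naming separate cultures, and the spread behind each p value is that between these libraries alone, which may be technical.

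Exosomes carry proteins, lipids and RNA between cells, and those of fat cells can deliver lipids to tumour cells. Cells answer inflammatory and lipid signals by changing transcription factors, which set the levels of other genes, and by changing the factors they secrete, the receptors with which they sense them and the transporters that move nutrients and metals across membranes. NF-kB and C/EBP factors are known activators of chemokine and acute phase genes, and MTF1 is the known activator of metallothioneins and of the zinc exporter gene Slc30a1.

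The 6 libraries held 9254662 to 11405709 counts. Levels are in CPM, a gene's share of its library's counts, scaled between libraries. The share of mitochondrial counts was 0.281% to 0.6% in control libraries. It was 0.546%, 0.0961% and 0.438% in IR libraries 1, 2 and 3, so IR library 2 stood apart. The part of this share in the results was not tested. A gene was tested where it reached 3 CPM in at least 3 of the 9 culture libraries, and called at an adjusted p of 0.05 or less by the quasi-likelihood test of edgeR, which gives all adjusted p values below. Of 10888 genes tested, 1477 (13.6%) were called, 726 (6.67%) higher and 751 (6.9%) lower. Most of these changes were small. The median fold among called genes was 1.22, and 1.5-fold or more was reached by 204 of the rises and 76 of the falls. In bulk RNA, fewer cells of a kind and less RNA per cell cannot be told apart.

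The transcripts were those of carcinoma cells. All 8 epithelial markers passed the filter, with a summed level of 3600 to 3620 CPM in the control libraries and 3200 to 3280 CPM in the IR libraries. Of these, 6 were called lower and none higher, and 2 of the 6 calls were lost in many of the 16 alternative settings. Cldn7 lost its call in 11 of them, among them any 1 control library, IR library 1 or 3 and IS library 1 or 3 left out (up to 0.154), and Krt19 in 8, among them control library 1 or 3 and IR library 2 or 3 left out (up to 0.175), and both with DESeq2 and the replicate block. Cldn4, a tight junction claudin, was 1.76-fold lower (adjusted p = 3.22e-08) and the keratin Krt7 1.33-fold lower (adjusted p = 3.86e-07), while Krt8 was at 1201 ± 15.8 against 1214 ± 14.1 CPM (SD, n = 3 each, adjusted p = 0.788). Of 12 adipocyte markers, which could reach the libraries with the exosomes, 8 had 0 counts in all IR libraries, among them Adipoq, Plin1, Cidec, Lep and Cfd. Their summed level was 6.68 to 8.26 CPM in IR and 7.46 to 11.9 CPM in control libraries, nearly all of it Lipe, which was not called (adjusted p = 0.126). Endothelial and neutrophil markers summed to at most 0.459 CPM in any IR library, and of 8 macrophage markers only Csf1r and Cd68 passed the filter and neither was called. The fibroblast list summed to 12.1 to 15.2 CPM in control and 23.4 to 25.2 CPM in IR libraries. There only Pdgfra passed the filter, and Col3a1, Lum and Thy1 had 0 counts in all 6 libraries.

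Secreted factors held the highest share of called genes among the 4 classes examined. Of 795 genes for secreted factors in the table, 200 passed the filter, and 62 of these were called higher and 34 lower (48.0%, against 13.6% of all genes tested). Receptors had 34 of 185 tested members higher and 25 lower (31.9%). Transporters had 25 of 310 higher and 35 lower (19.4%), and transcription factors 32 of 311 higher and 27 lower (19.0%). Tested genes outside the 4 classes were called at 12.2%. The median log2 difference was 0.08 for secreted factors, 0.03 for receptors, -0.01 for transporters and 0.01 for transcription factors, against 0.00 for all genes. A gene of low level could pass the filter through the group where it was higher, so these shares describe the tested members and not the whole classes. The same holds for the counts per list below. Beside them stand 6.67% of all genes tested called higher and 6.9% called lower.

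**Figure D1:**
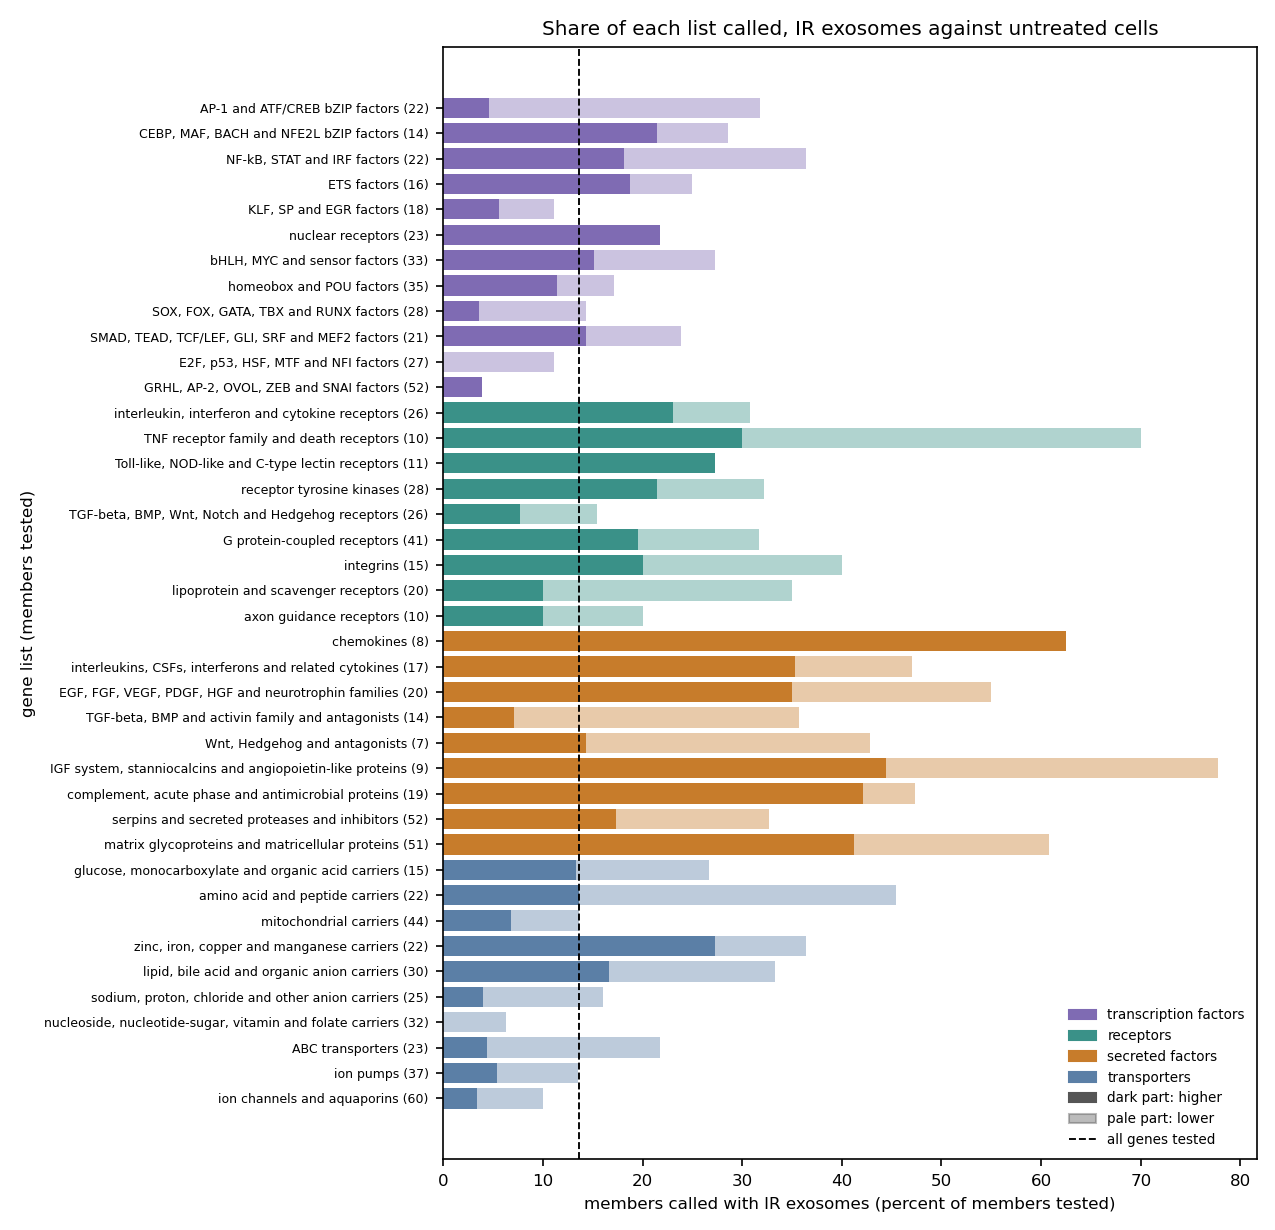
Bars give, for 40 gene lists with 5 or more tested members, the percent of tested members called with IR exosomes against untreated cells, with the dark part higher and the pale part lower and the number tested in brackets. The dashed line is the share of all genes tested, 13.6%. In 33 of the lists the bar ends beyond the line, the longest being that of the IGF, stanniocalcin and angiopoietin-like list.

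Among the secreted factors, 5 of 8 tested chemokines were called higher and none lower, against 6.67% of all genes tested called higher. Only these 8 of 41 chemokines in the table passed the filter, and Ccl2 passed it only with the exosome libraries. Cxcl1, which draws neutrophils through the receptor CXCR2, was at 11.1, 7.16 and 10.3 CPM in the control libraries and at 116, 122 and 112 CPM in the IR libraries. Ccl2, which draws monocytes, was at 1.62, 3.19 and 2.68 CPM in control and 12, 14.0 and 13.2 CPM in IR libraries. For both genes every IR library lay above every control library. Genes named from the lists had to have groups that do not overlap, so for them this separation describes the choice. The log2 rise was 3.6 ± 0.094 for Cxcl1 (SE, adjusted p = 9.45e-14) and 2.39 ± 0.182 for Ccl2 (adjusted p = 1.29e-07). The groups did not overlap for 5 of the 8 chemokines, against 30.2% of all genes tested.

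Acute phase, complement and antimicrobial proteins had 8 of 19 tested members higher and 1 lower. Slpi, an inhibitor of neutrophil proteases with antimicrobial activity, was at 9.61, 8.70 and 8.23 CPM in control and 52.2, 43.4 and 41.6 CPM in IR libraries, a 5.17-fold rise (log2 2.37 ± 0.109, adjusted p = 2.24e-10). Complement component C3 lay at 8.70, 10.6 and 10.3 CPM without and 100.0, 98.7 and 94.7 CPM with IR exosomes. Lcn2, which binds bacterial iron carriers, had 1, 2 and 2 counts in the control libraries and 228, 233 and 265 counts in the IR libraries. The ratio of its summed counts, scaled for library size, was 135 (95% counting interval 57.6 to 417). For each of these 3 genes every IR library lay above every control library, as their choice required.

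The promoters of 3 of these genes are printed because NF-kB and C/EBP factors are known to act on such genes and the transcripts rose together. Each is the 250 bases before the start site on the gene's strand, from RefSeq on build GRCm38.p6, written 5′ to 3′. Capitals show matches to 1 motif chosen for each gene, and matches to the other motif were not marked. In Cxcl1 (chr5:90890995-90891244, plus strand) the capitals mark 2 overlapping matches to the NF-kB motif, 1 on each strand, whose bases lie 71 to 61 bases before the start. In C3 (chr17:57228137-57228386, minus strand) and Lcn2 (chr2:32387740-32387989, minus strand) they mark a C/EBP match, searched as TTGCNNAA or TTACNNAA on both strands.
Cxcl1: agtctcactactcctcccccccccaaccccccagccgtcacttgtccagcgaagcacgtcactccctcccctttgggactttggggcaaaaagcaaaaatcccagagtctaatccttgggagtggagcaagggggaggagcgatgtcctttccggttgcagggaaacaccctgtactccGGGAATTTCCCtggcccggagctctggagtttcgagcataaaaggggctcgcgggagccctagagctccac
C3: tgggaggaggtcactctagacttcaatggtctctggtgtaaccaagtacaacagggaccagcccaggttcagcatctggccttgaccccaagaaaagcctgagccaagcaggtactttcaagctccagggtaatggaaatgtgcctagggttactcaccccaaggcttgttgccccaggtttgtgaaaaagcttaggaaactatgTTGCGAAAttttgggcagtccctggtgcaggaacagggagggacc
Lcn2: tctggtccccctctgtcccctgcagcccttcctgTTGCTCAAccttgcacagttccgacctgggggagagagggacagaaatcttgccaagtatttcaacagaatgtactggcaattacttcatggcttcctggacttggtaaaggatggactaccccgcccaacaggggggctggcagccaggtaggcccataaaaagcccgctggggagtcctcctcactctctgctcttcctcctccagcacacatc
Such letters are common. The NF-kB motif was found in 7.25% of all promoter windows, in 9.02% of windows of tested genes and in 7 of 54 windows (13%) of genes called at least 2-fold higher. The C/EBP letters were in 16.5%, 11.6% and 9 of 54 windows (16.7%), in that order. In windows of genes called at least 1.5-fold lower, the NF-kB motif was in 6 of 57 (10.5%) and the C/EBP letters in 10 of 57 (17.5%). The C/EBP share was thus no higher among the rises than among the falls. A match describes the letters of the window and is not evidence of binding.

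Growth factors moved in both directions. In the list of the EGF, FGF, VEGF, PDGF and related families, 7 of 20 tested members were higher and 4 lower. These counts include Pros1, which rose, and Fgfbp1, which fell, neither of them a growth factor of these families. Areg, amphiregulin, an EGF receptor ligand, was at 23.4, 23.7 and 20.9 CPM in control and 39.9, 36.6 and 44.9 CPM in IR libraries (1.79-fold higher, log2 0.84 ± 0.092, adjusted p = 8.41e-06). Btc, betacellulin, another ligand of that receptor, was 1.64-fold higher (adjusted p = 0.00792). Pdgfb, the B chain of platelet-derived growth factor, went the other way, from 160, 165 and 155 CPM to 68.4, 67.8 and 72.8 CPM (2.30-fold lower, log2 -1.2 ± 0.056, adjusted p = 2.66e-10). Fgfbp1, which releases fibroblast growth factors from the matrix, lay at 22.0, 28.4 and 24.7 CPM without and 7.37, 6.28 and 5.59 CPM with IR exosomes.

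Angptl4, an inhibitor of lipoprotein lipase and a known target of lipid-sensing PPAR receptors, was at 1.11, 1.32 and 2.06 CPM in control and 6.87, 5.93 and 6.69 CPM in IR libraries (log2 2.09 ± 0.224, adjusted p = 6.52e-06). It belongs to a list of IGF system proteins, stanniocalcins and angiopoietin-like proteins in which 4 of 9 tested members rose and 3 fell. Igfbp4, which binds insulin-like growth factors, rose from 1203, 1179 and 1204 CPM to 1668, 1665 and 1653 CPM, a 1.39-fold difference with little spread (log2 0.48 ± 0.026, adjusted p = 1.89e-09). The stanniocalcins, secreted glycoproteins first known as calcium regulators, split: Stc1 was 1.57-fold higher (adjusted p = 0.00621) and Stc2 2.06-fold lower (adjusted p = 0.00809).

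Of 14 tested members of the TGF-beta, BMP and activin families and their antagonists, 1 rose and 4 fell. Tgfb2, transforming growth factor beta 2, lay at 4.96, 4.40 and 4.74 CPM in control and 1.87, 2.74 and 2.29 CPM in IR libraries (log2 -1.02 ± 0.212, adjusted p = 0.00369). Inhba, which encodes the subunit of activin A, was 1.37-fold lower (adjusted p = 0.000183). Ltbp2, a microfibril-associated relative of the latent TGF-beta binding proteins, was 1.36-fold higher (adjusted p = 1.55e-06). In the Wnt list, Notum, a secreted esterase that inactivates Wnt proteins, rose 2.90-fold (log2 1.54 ± 0.224, adjusted p = 0.000169), while the ligands Wnt10a and Wnt7a were 2.08-fold and 1.43-fold lower (adjusted p = 1.62e-06 and 1.4e-05).

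The list of matrix and matricellular genes formed the largest group of called secreted factors. Of its 51 tested members 21 were higher and 10 lower, with a median log2 difference of 0.11. The guidance proteins Sema3c, Sema3e and Ntn1, given below, are counted in it. The groups did not overlap for 34 of the 51, against 30.2% of all genes tested. The falls included matricellular proteins, which act on cells rather than build the matrix. Such proteins did not all fall, since Spp1, given below, rose. Postn, periostin, went from 7.08, 6.5 and 5.19 CPM to 1.37, 1.5 and 1.19 CPM (4.56-fold lower, log2 -2.19 ± 0.243, adjusted p = 9.38e-06). Ccn2, connective tissue growth factor, went from 206, 206 and 190 CPM to 110, 95.8 and 109 CPM (log2 -0.94 ± 0.057, adjusted p = 6.47e-09). Its relative Ccn1, named after its values were seen, was 1.66-fold lower (adjusted p = 5.03e-08). Both are widely used as readouts of YAP and TEAD activity, and Tead2 itself was 1.37-fold higher (adjusted p = 4.51e-05). Thbs1, thrombospondin 1, lay at 625, 652 and 644 CPM in control and 238, 232 and 244 CPM in IR libraries.

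Guidance proteins were among the rises. Sema3c, a semaphorin, was at 0.708, 2.42 and 1.61 CPM in control and 3.73, 6.64 and 5.23 CPM in IR libraries (log2 1.73 ± 0.307, adjusted p = 0.001). Ntn1, netrin 1, rose from 38.0, 42.7 and 39.5 CPM to 74.9, 75.0 and 64.6 CPM (1.78-fold, log2 0.84 ± 0.071, adjusted p = 4.72e-07). Sema3e was 1.5-fold higher (adjusted p = 3.4e-06). Spp1, osteopontin, a secreted phosphoprotein that binds integrins and CD44, rose from 297, 313 and 302 CPM to 477, 481 and 467 CPM (log2 0.64 ± 0.036, adjusted p = 2.11e-09).

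The list of secreted proteases and their inhibitors, which also held the lysyl oxidase Loxl4, had 9 of 52 tested members higher and 8 lower. The collagenase Mmp13 was at 2.73, 3.08 and 3.04 CPM in control and 9.13, 8.94 and 8.53 CPM in IR libraries, a 3-fold rise (log2 1.58 ± 0.159, adjusted p = 3.1e-06). The gelatinase Mmp9 moved the other way, from 296, 316 and 298 CPM to 186, 184 and 181 CPM (1.65-fold lower, log2 -0.73 ± 0.038, adjusted p = 1.04e-09). Plat, tissue plasminogen activator, and the brain serine protease Prss12 were 2.21-fold and 3.77-fold higher (adjusted p = 0.000579 and 1.78e-07). Adamts1 was 2.75-fold lower and Loxl4, a lysyl oxidase that crosslinks collagen, 1.38-fold lower (adjusted p = 2.48e-11 and 7.8e-06).

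**Figure D2:**
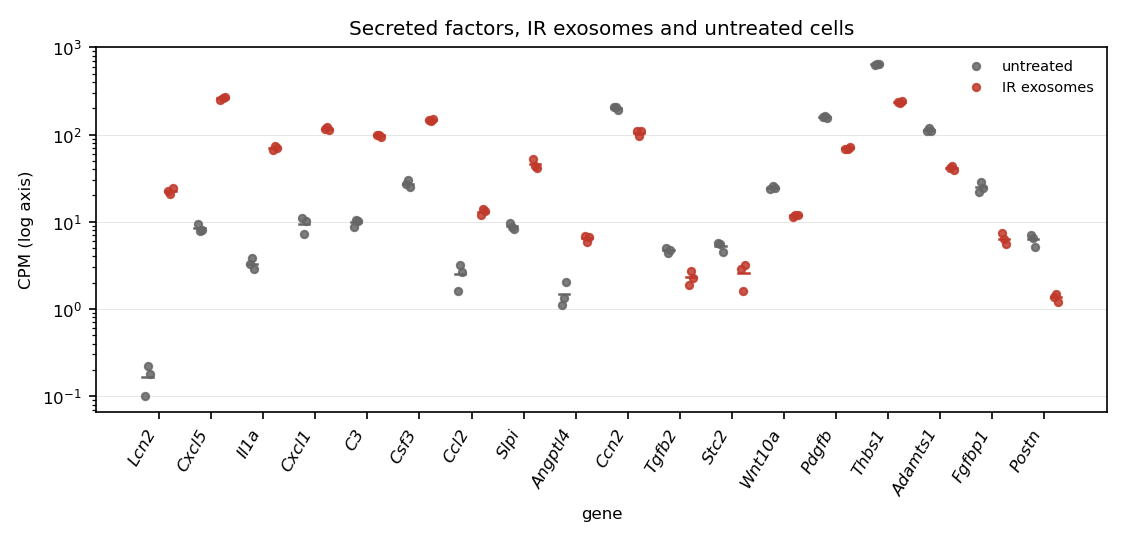
Points are CPM of 18 secreted factors in the 3 untreated (grey) and the 3 IR exosome libraries (red), on a log axis, with a short line at each group's mean. The 9 genes at the left rose and the 9 at the right fell, and the red and grey points of a gene do not overlap, as the choice of genes requires.

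Of the 59 transcription factors called, 1.5-fold or more was reached by 9 rises and 2 falls, a share close to that among all 1477 called genes, of which 204 rises and 76 falls did so. Cebpb and Cebpd, C/EBP factors of the acute phase response and of fat cell formation, both rose. Cebpb went from 125, 128 and 133 CPM to 235, 239 and 223 CPM (log2 0.85 ± 0.045, adjusted p = 1.14e-09), and Cebpd from 4.45, 3.52 and 2.59 CPM to 8.05, 10.7 and 8.71 CPM (log2 1.39 ± 0.199, adjusted p = 0.000137). Id1, an inhibitor of helix-loop-helix factors and a known target of BMP signalling, was at 30.8, 28.6 and 29.3 CPM in control and 50.7, 56.8 and 60.6 CPM in IR libraries (log2 0.92 ± 0.074, adjusted p = 2.14e-07). Bhlhe40, a repressor of the circadian clock and of many stress-related genes, fell 2.05-fold, from 97.0, 102 and 97.4 CPM to 45.7, 47.4 and 51.7 CPM (log2 -1.03 ± 0.056, adjusted p = 1.51e-09).

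Other factors rose by smaller amounts. Glis3, a zinc finger factor of the pancreas, thyroid and kidney, was 1.72-fold higher (adjusted p = 1.29e-07) while its relative Glis2 was 1.36-fold lower (adjusted p = 3.94e-05). Elf3, an epithelial ETS factor induced by inflammatory cytokines, was 1.70-fold higher (adjusted p = 3.36e-05). In the nuclear receptor list 5 of 23 tested members rose and none fell, led by the thyroid hormone receptor Thra at 1.54-fold (adjusted p = 3.15e-05). Klf10, an early TGF-beta response factor, was 1.39-fold higher (adjusted p = 3.36e-05). Foxf1, a forkhead factor of mesoderm, was at 7.99, 9.03 and 9.21 CPM in control and 6.19, 3.89 and 6.14 CPM in IR libraries (adjusted p = 0.0186), and its call was lost without control library 2 or 3 or IR library 2, at an adjusted p of up to 0.0887.

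Of the NF-kB subunit genes, 3 fell and 1 rose, all by small amounts. Nfkb2, which encodes the precursor of the p52 subunit of NF-kB, lay at 329, 328 and 328 CPM in control and 239, 231 and 248 CPM in IR libraries (1.37-fold lower, log2 -0.45 ± 0.035, adjusted p = 1.53e-07). The other subunits were named after their values were seen. Relb was 1.19-fold lower (adjusted p = 0.0165), and lost its call without control library 1 and with DESeq2, at up to 0.0726. Rela was 1.10-fold lower (adjusted p = 0.0304) and Nfkb1 1.10-fold higher (adjusted p = 0.0237), and both lost their calls without any 1 of the control libraries, at up to 0.0949 and 0.0867. Rela lost it also without IR library 1 or 2, with DESeq2 and with upper quartile scaling, and Nfkb1 also without IR library 1 or 3 and with only the IR and control libraries. In the whole list of NF-kB, STAT and IRF factors, 4 of 22 tested members rose and 4 fell. Srebf2, the regulator of cholesterol synthesis genes, was 1.33-fold lower (adjusted p = 4.85e-06) and Srebf1, named after its values were seen, 1.28-fold lower (adjusted p = 1.89e-05).

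**Figure D3:**
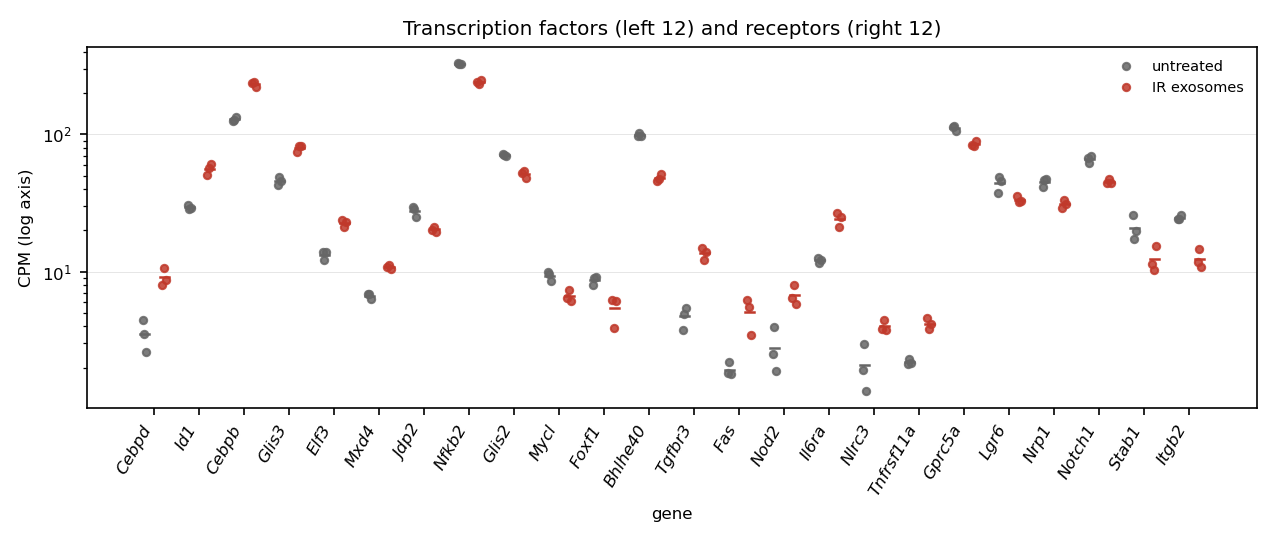
Points are CPM of 12 transcription factors (left) and 12 receptors (right) in the 3 untreated (grey) and 3 IR exosome libraries (red), on a log axis, with a short line at each group's mean. Within each block the rises come first and the falls last, from Cebpd to Bhlhe40 and from Tgfbr3 to Itgb2.

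Receptors of cytokines rose more often than they fell, with 6 of 26 tested members higher and 2 lower. Il6ra, which binds interleukin 6, was at 12.6, 11.5 and 12.1 CPM in control and 26.6, 21.3 and 25.2 CPM in IR libraries (2.02-fold, log2 1.01 ± 0.104, adjusted p = 4.14e-06). Osmr, the oncostatin M receptor of the same receptor family, was at 4.75, 3.63 and 1.88 CPM in control and 5.70, 5.75 and 7.15 CPM in IR libraries (adjusted p = 0.031), and lost its call without control library 2 or 3 or IR library 3, at up to 0.137. Il1rap, the shared chain of the interleukin 1 receptor, rose 1.34-fold (adjusted p = 0.00693).

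In the TNF receptor family 3 of 10 tested members rose and 4 fell. Fas, the death receptor for Fas ligand, was at 1.82, 2.20 and 1.79 CPM in control and 6.19, 5.49 and 3.48 CPM in IR libraries (log2 1.38 ± 0.276, adjusted p = 0.00276). Tnfrsf11a, which encodes RANK, was 1.90-fold higher (adjusted p = 0.0061). Nod2, a sensor of bacterial cell wall fragments, rose from 2.53, 3.96 and 1.88 CPM to 6.38, 7.96 and 5.78 CPM (log2 1.29 ± 0.246, adjusted p = 0.00189). Nlrc3, another NOD-like protein, was 1.96-fold higher (adjusted p = 0.0169), with the call lost without control library 1 or 3 or IR library 2, at up to 0.0928.

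Tgfbr3, the TGF-beta coreceptor betaglycan, showed the largest rise among the named receptors, from 3.74, 4.95 and 5.46 CPM to 14.8, 12.2 and 13.8 CPM (2.87-fold, log2 1.52 ± 0.170, adjusted p = 9.84e-06). Notch1 fell 1.46-fold, from 67.0, 61.9 and 69.6 CPM to 44.2, 47.6 and 44.2 CPM (log2 -0.55 ± 0.060, adjusted p = 7.66e-06). Itgb2, the beta chain of leukocyte integrins, was 1.99-fold lower (adjusted p = 6.44e-06). Among receptor tyrosine kinases 6 of 28 tested members rose and 3 fell, with Fgfr2, a fibroblast growth factor receptor, 1.45-fold higher (adjusted p = 1.74e-05). Pdgfra, the alpha receptor for platelet-derived growth factors, was at 15.1, 11.3 and 13.2 CPM in control and 23.7, 22.4 and 24.3 CPM in IR libraries (1.77-fold higher, log2 0.82 ± 0.112, adjusted p = 8.66e-05). It is also a fibroblast marker, the rest of that list is given above, and its part in this rise was not tested.

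For several changed ligands the receptor transcript had at most 1 count in a group of 3 libraries. Cxcr2, the receptor for Cxcl1 and Cxcl5, had 1 count over the 3 IR libraries and 1 over the 3 control libraries. The Ccl2 receptor Ccr2 had 1 and 0 counts, and the Csf3 receptor Csf3r 0 and 0. Other ligands had a receptor present. For Il1a, Il1r1 was at 11.5 ± 0.637 CPM in control and 14.3 ± 1.58 CPM in IR libraries (SD over 3), a difference that missed the threshold (adjusted p = 0.0777) and passed without IR library 1 (0.0348). Egfr, the receptor for Areg, was at 4.34 ± 0.670 against 4.08 ± 0.992 CPM (adjusted p = 0.864). For Tgfb2, which fell, Tgfbr1 was 1.15-fold higher (adjusted p = 0.0338, lost with DESeq2 and without any 1 control library, IR library 2 or 3 or IS library 3, at up to 0.149) and Tgfbr2 1.10-fold higher without passing (adjusted p = 0.0751). For Sema3c, which rose, the coreceptor Nrp1 was 1.44-fold lower (log2 -0.53 ± 0.072, adjusted p = 8.17e-05). Its other receptors did not pass, with Nrp2 at 471 ± 22.3 CPM in control and 496 ± 20.4 CPM in IR libraries (SD over 3, adjusted p = 0.283) and Plxnd1 at 18.2 ± 0.927 and 18.3 ± 1.74 CPM (adjusted p = 0.982).

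Transporters of zinc and other metals changed in 8 of 22 tested members, 6 of them higher and 2 lower. The zinc importers Slc39a10 and Slc39a4 both rose. Slc39a10 went from 83.0, 78.6 and 87.6 CPM to 159, 177 and 164 CPM (2-fold, log2 1.00 ± 0.053, adjusted p = 1.04e-09) and Slc39a4 from 29.5, 26.9 and 25.9 CPM to 67.1, 58.3 and 64.0 CPM (2.30-fold, log2 1.2 ± 0.067, adjusted p = 2.11e-09). The zinc exporter Slc30a1 fell from 36.5, 31.8 and 35.7 CPM to 18.0, 20.4 and 23.8 CPM (1.67-fold, log2 -0.74 ± 0.095, adjusted p = 4.22e-05). The metallothioneins, small proteins that bind zinc and copper, fell as well. Mt1 lay at 76.4, 75.4 and 80.4 CPM in control and 35.4, 30.7 and 33.8 CPM in IR libraries, and Mt2 at 56, 59.7 and 42.9 CPM in control and 18.1, 20.1 and 20.1 CPM in IR libraries. In all IR libraries both importers lay above, and the exporter and both metallothioneins below, every control library. The naming rule required groups that do not overlap, so this separation describes the choice of these genes. It held for 30.2% of all genes tested. Mtf1, the metal-sensing factor, was 1.08-fold lower without passing (adjusted p = 0.476).

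The promoters of the 3 genes that fell are shown because MTF1 is known to act on them through metal response elements. The windows are as above, from RefSeq on GRCm38.p6, and the capitals mark the core of the element, searched as TGCACNC or TGCGCNC on both strands. Mt1 (chr8:94178839-94179088, plus strand) and Slc30a1 (chr1:191906531-191906780, plus strand) held 1 match each and Mt2 (chr8:94172368-94172617, plus strand) 3. These counts depend on the annotated start and are not those of a whole promoter, since bases outside the window were not searched.
Mt1: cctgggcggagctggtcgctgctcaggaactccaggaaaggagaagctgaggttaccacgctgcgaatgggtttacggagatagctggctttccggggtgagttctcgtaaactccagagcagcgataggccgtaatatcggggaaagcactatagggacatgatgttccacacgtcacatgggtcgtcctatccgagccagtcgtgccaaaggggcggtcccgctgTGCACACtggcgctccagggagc
Mt2: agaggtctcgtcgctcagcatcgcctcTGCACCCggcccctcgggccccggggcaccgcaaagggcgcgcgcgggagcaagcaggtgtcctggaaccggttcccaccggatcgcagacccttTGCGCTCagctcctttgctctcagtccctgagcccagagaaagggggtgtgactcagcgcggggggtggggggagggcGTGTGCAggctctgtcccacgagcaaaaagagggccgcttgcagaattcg
Slc30a1: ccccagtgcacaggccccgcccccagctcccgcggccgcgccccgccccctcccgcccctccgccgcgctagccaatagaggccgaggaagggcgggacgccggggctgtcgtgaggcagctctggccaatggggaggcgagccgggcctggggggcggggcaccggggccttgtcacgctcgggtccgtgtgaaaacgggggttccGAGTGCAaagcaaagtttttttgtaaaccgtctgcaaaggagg
These letters were in 30.3% of windows of all tested genes and in 16 of 57 windows (28.1%) of genes called at least 1.5-fold lower.

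Amino acid carriers were the transporters with most falls, 7 of 22 tested members against 3 rises, with a median log2 difference of -0.08. Slc7a5, the large neutral amino acid exchanger, went from 309, 284 and 317 CPM to 227, 213 and 219 CPM (1.38-fold lower, log2 -0.47 ± 0.043, adjusted p = 1.1e-06). The other falls were smaller and were named after their values were seen. The glutamine carrier Slc1a5 was 1.27-fold lower (adjusted p = 0.000113), the arginine carrier Slc7a1 1.24-fold (adjusted p = 9.52e-05) and Slc3a2, the heavy chain that partners Slc7a5, 1.16-fold (adjusted p = 0.00388). Slc1a4, Slc7a6 and Slc6a6 were 1.2-fold, 1.12-fold and 1.11-fold lower, with adjusted p values of 0.0272, 0.0456 and 0.0201. Slc1a4 lost its call with DESeq2 and without IR library 1 or 2 or control library 2 or 3 (up to 0.0981), Slc6a6 without IR library 1 or control library 2 or 3 (up to 0.0749), and Slc7a6 in 11 of the 16 alternative settings, among them any 1 IR library, control library 1 or 2 and IS library 1 or 3 left out (up to 0.177). Slc43a2, a carrier of branched-chain and aromatic amino acids, rose instead, from 7.08, 6.06 and 6.35 CPM to 16.8, 15.8 and 16.5 CPM (2.52-fold, log2 1.33 ± 0.116, adjusted p = 5.87e-07). So did Slc7a11, the cystine importer, at 1.54-fold (adjusted p = 0.00105).

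Among carriers of lipids and organic anions 5 of 30 tested members rose and 5 fell. Slc27a1, a fatty acid transport protein, was 1.48-fold higher (adjusted p = 0.000451). Mfsd2a, which carries lysophosphatidylcholine with long-chain fatty acids, was at 23.8, 19.4 and 19.7 CPM in control and 13.8, 13.7 and 13.8 CPM in IR libraries (1.52-fold lower, log2 -0.60 ± 0.103, adjusted p = 0.000739). Stard4, a cytosolic sterol carrier, was 1.39-fold lower (adjusted p = 2.29e-05). Abcc3, an exporter of conjugated organic anions, was at 3.84, 4.51 and 5.01 CPM in control and 11.8, 11.9 and 9.63 CPM in IR libraries (2.48-fold higher, log2 1.31 ± 0.177, adjusted p = 7.82e-05). In mitochondria the citrate carrier Slc25a1, which supplies the cytosol for lipid synthesis, was 1.45-fold lower (adjusted p = 1.14e-05), and 6 of 44 tested mitochondrial carriers were called in all (13.6%).

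Ion transport changed in few members. Of 60 tested ion channels and aquaporins 2 rose and 4 fell (10.0%), and of 37 ion pumps 2 rose and 3 fell (13.5%), shares near or under the 13.6% of all genes. Atp1b1, the beta subunit of the sodium and potassium pump, went from 38.6, 42.3 and 40.6 CPM to 21.1, 23.7 and 20.7 CPM (1.85-fold lower, log2 -0.89 ± 0.075, adjusted p = 3.86e-07). Slc4a11, a membrane transporter related to the bicarbonate carriers, was 1.84-fold lower (adjusted p = 0.00039). Atp2c2, a calcium and manganese pump of the secretory pathway, was 1.64-fold higher (adjusted p = 0.0002).

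**Figure D4:**
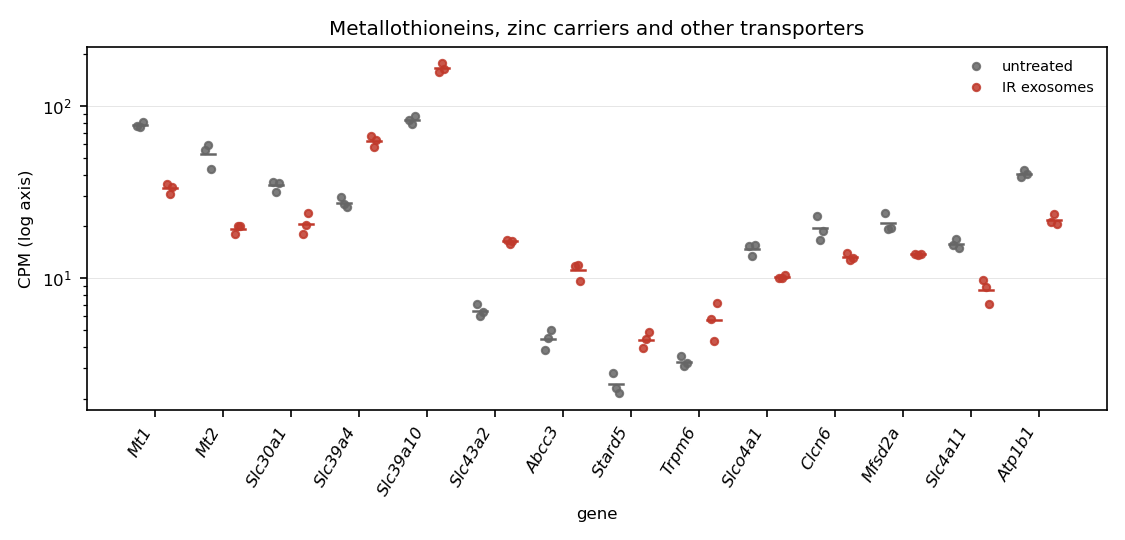
Points are CPM of 14 genes, the metallothioneins Mt1 and Mt2 and 12 transporters, in the 3 untreated (grey) and 3 IR exosome libraries (red), on a log axis, with a short line at each group's mean. The red points lie under the grey ones for Mt1, Mt2 and Slc30a1 and above them for the importers Slc39a4 and Slc39a10. The choice of genes required such a separation.

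Among genes in none of the lists, the 12 largest rises and 12 largest falls were named. Nos2, inducible nitric oxide synthase, had 3, 0 and 4 counts in the control libraries and 84, 92 and 110 counts in the IR libraries, a ratio of summed counts, scaled for library size, of 38 (95% counting interval 18.2 to 95.4). Aldh3a1, an aldehyde dehydrogenase, was at 1.52, 2.20 and 1.52 CPM in control and 8.74, 8.32 and 9.35 CPM in IR libraries (log2 2.34 ± 0.196, adjusted p = 3.86e-07). Mgst1, a membrane glutathione transferase, was 3.85-fold higher (adjusted p = 2.77e-05), Xdh, which makes uric acid, 3.19-fold (adjusted p = 1.72e-07), Cbr2, a carbonyl reductase, 3.12-fold (adjusted p = 0.000216) and Cyp1b1, a cytochrome P450, 2.85-fold (adjusted p = 1.13e-08). Prl2c2, a prolactin-like growth factor gene, was at 2.02, 3.52 and 2.15 CPM in control and 13.6, 13.5 and 14.4 CPM in IR libraries (5.44-fold, adjusted p = 7.71e-08). Its near-identical neighbours in the same family may share reads with it, so its own level is uncertain. The other rises included Zc3h12a, a ribonuclease that degrades inflammatory transcripts (5.85-fold, adjusted p = 1.35e-11), and Nfkbiz, an atypical regulator of NF-kB (5.46-fold, adjusted p = 6.08e-11). The rest were Cpt1a, the gatekeeper of mitochondrial fatty acid oxidation (5.36-fold, adjusted p = 4.69e-14), Neurl3 (3.02-fold, adjusted p = 2.07e-10) and Prnd (2.98-fold, adjusted p = 3.98e-07). The 12 falls were 2.13-fold to 2.71-fold, and they included Mt1 and Mt2, the sterol genes Insig1, Cyp51, Fdps, Lss and Msmo1, and the fatty acid desaturases Scd1 and Scd2.

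With exosomes of IS adipocytes 19.3% of the genes tested were called against the same control libraries, and IR and IS libraries differed in 6.27%. Because both comparisons share the control libraries, their calls are not independent. Many of the genes described above were called in the same direction with IS exosomes too, so their changes were not particular to IR exosomes. Against control, Ccl2 was 5.23-fold higher with IR and 7.56-fold higher with IS exosomes, and Cxcl1 12.1-fold and 11.1-fold. Slpi was 5.17-fold higher with IR and 3.9-fold higher with IS exosomes, Tgfbr3 2.87-fold and 2.9-fold, Cebpb 1.8-fold and 1.71-fold and Slc39a4 2.3-fold and 2.19-fold, and all 6 genes were called in both comparisons. Of the 1477 genes called with IR exosomes, 541 were not called with IS exosomes, 222 of them higher and 319 lower. A gene was taken as changed with IR and not with IS exosomes where, in addition, IR and IS libraries differed in the same direction. That held for 131 genes (1.2% of those tested), 38 higher and 93 lower, with a median fold of 1.22 against control. Only 16 of them were at least 1.5-fold from control, 4 higher and 12 lower. They were chosen by these very tests, so the values below describe them. They comprised 5 transcription factors, 5 receptors, 8 secreted factors and 6 transporters, and 107 genes in none of the classes. All 5 receptors and 6 transporters, and 6 of the 8 secreted factors, were lower.

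The count depended on single libraries. It was 67 without IR library 2 and 67 without IS library 3, 79 without IS library 2 and 80 without IS library 1, and 35 of the 131 genes met the rule in all 15 alternative settings that could be run. Txnip, Ccng2, Oga, Tmprss11e, Wnt10a, Wnt7a, Jdp2, Atp1b1, Podnl1, Ass1 and Lurap1l were of this kind.

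Among the secreted factors and receptors lower by this rule, Wnt10a, a Wnt ligand, was at 24.0, 25.8 and 24.3 CPM in control, 23.6, 18.8 and 21.7 CPM in IS and 11.3, 12.1 and 12.1 CPM in IR libraries, 1.82-fold lower than with IS exosomes. Tgfb2 was at 4.87, 3.64 and 4.74 CPM in IS libraries, within the control range at 2 of the 3, and 1.93-fold lower in IR libraries. It missed the rule without IS library 1 or 3. Podnl1, a leucine-rich matrix proteoglycan, was at 63.9, 63.2 and 54.1 CPM in control, 61.1, 57.7 and 59.2 CPM in IS and 38.1, 31.2 and 36.5 CPM in IR libraries. Stab1, a scavenger receptor, was at 25.9, 17.2 and 19.8 CPM in control, 26.8, 25.9 and 25.7 CPM in IS and 11.3, 10.3 and 15.4 CPM in IR libraries, a gap of 2.12-fold between IR and IS. Stab1 missed the rule without control library 1 and with no filter. Stc2 was 1.86-fold lower than with IS exosomes and missed the rule without IR library 2 or any of the 3 IS libraries. Nrp1, the semaphorin coreceptor named above, was 1.28-fold lower than with IS exosomes and missed the rule without control library 1. Its IS libraries (39.3, 40.7 and 40.1 CPM) also lay below its control libraries (41.7, 46.5 and 47.3 CPM), without passing (adjusted p = 0.09).

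Of the other genes lower by this rule, Atp1b1 was at 38.2, 39.9 and 37.4 CPM in IS libraries, 1 of them within the control range, and 1.76-fold lower in IR libraries. Ass1, argininosuccinate synthase, which makes the precursor of arginine, was at 45.6, 50.0 and 42.3 CPM in control, 47.9, 51.9 and 51.2 CPM in IS and 31.4, 28.9 and 31.0 CPM in IR libraries. Trib3, a pseudokinase of the integrated stress response, was at 12.9, 12.6 and 13 CPM in control, 15.1, 15.0 and 13.7 CPM in IS and 10.4, 8.23 and 10.0 CPM in IR libraries. Its call against control (adjusted p = 0.0252) was lost with DESeq2, without IR library 2 and without any 1 of the 3 control libraries, at up to 0.116. Jdp2, an AP-1 repressor, was 1.41-fold lower than with IS exosomes, and Slc3a2 was also in this set. It missed the rule without IR library 2 or 3 or IS library 1 or 2. Sorbs2, an adaptor of the actin cytoskeleton, was at 88.9, 97.9 and 88.7 CPM in control, 85.5, 84.7 and 75.1 CPM in IS and 50.5, 53.4 and 59.9 CPM in IR libraries. S100a7a, an S100 calcium-binding protein, was 1.80-fold lower than with IS exosomes. For both genes every IS library also lay below every control library, a smaller fall that missed the threshold (1.12-fold, adjusted p = 0.0954, and 1.3-fold, adjusted p = 0.117). Sorbs2 missed the rule with no filter and S100a7a without IS library 3.

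Rises with IR and not with IS exosomes were fewer. Txnip, which limits glucose uptake and binds thioredoxin, was at 5.06, 3.52 and 5.10 CPM in control, 6.42, 6.69 and 5.20 CPM in IS and 13.7, 12.2 and 11.6 CPM in IR libraries, 2.07-fold above IS. Ccng2, cyclin G2, an atypical cyclin linked to cell cycle arrest, was at 12.7, 15.3 and 12.6 CPM in control, 16.1, 16.5 and 14.9 CPM in IS and 27.3, 24.0 and 22.2 CPM in IR libraries. Mxd4, a MAX partner that opposes MYC, was at 6.88, 6.83 and 6.35 CPM in control, 7.80, 5.28 and 7.76 CPM in IS and 10.9, 11.1 and 10.5 CPM in IR libraries. It missed the rule without IR library 2 or 3 or IS library 2. Oga, the enzyme that removes O-GlcNAc sugars from proteins, was at 116, 117 and 116 CPM in control, 106, 113 and 113 CPM in IS and 141, 126 and 138 CPM in IR libraries, a 1.22-fold gap. Klhl24, an adaptor of a ubiquitin ligase, was 1.59-fold above IS, and lost its call against control without IR library 2 (adjusted p = 0.0595) and the rule also without IS library 2 or 3.

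**Figure D5:**
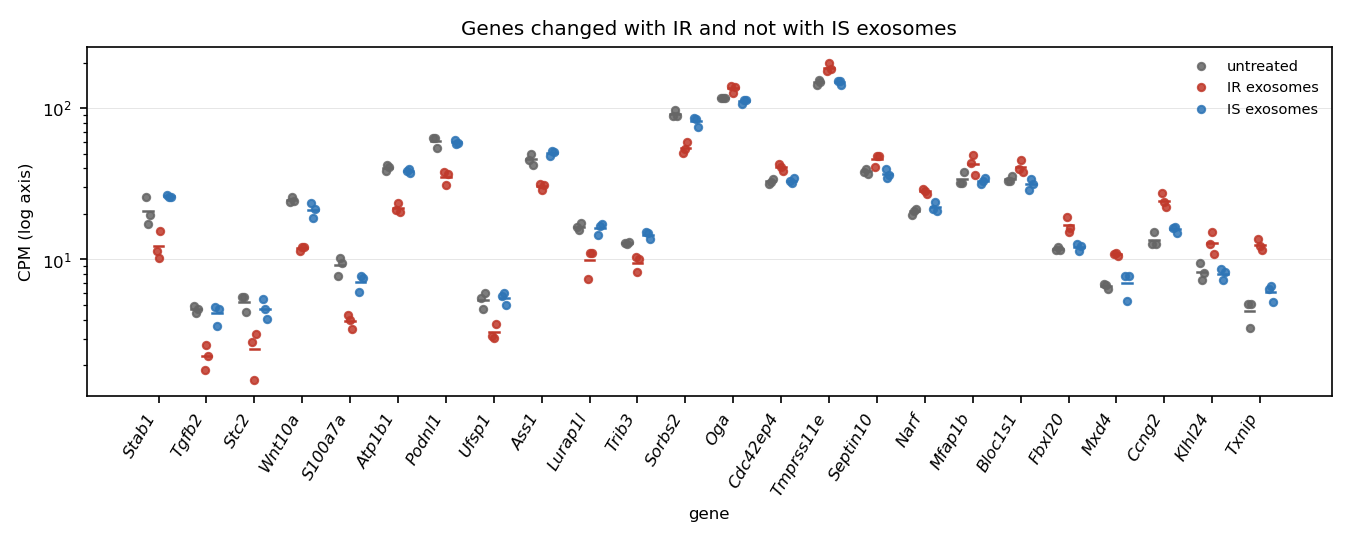
Points are CPM of 24 genes called with IR and not with IS exosomes, 12 lower (left) and 12 higher (right), in the 3 untreated (grey), 3 IR (red) and 3 IS libraries (blue), on a log axis, with a short line at each group's mean. Red points lie apart from blue points for Txnip and Ccng2, while the gaps of Oga and Septin10 are small.

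In 9 genes IR and IS exosomes were called in opposite directions against control. Slco4a1, an organic anion carrier, was at 15.5, 13.4 and 15.7 CPM in control, 20.1, 21.2 and 19.2 CPM in IS and 10.1, 10.1 and 10.5 CPM in IR libraries, 1.96-fold apart between IR and IS. Ccnd2, cyclin D2, which drives entry into the cell cycle, was at 133, 143 and 136 CPM in control, 171, 176 and 164 CPM in IS and 117, 120 and 125 CPM in IR libraries. Its fall with IR exosomes (adjusted p = 0.0116) missed the threshold without control library 2 (0.0707). Plxnb1, a semaphorin receptor, went the other way, at 95.6, 85.5 and 90.9 CPM in control, 77.6, 83.0 and 77.3 CPM in IS and 110, 104 and 107 CPM in IR libraries. St6galnac4, a sialyltransferase, was 1.21-fold lower with IR exosomes (adjusted p = 0.00672) and 1.41-fold lower than with IS exosomes. The other 5 were Csf1, Arhgap29, Mical2, Bnip3l and H3f3a, whose differences with IR exosomes were at most 1.23-fold and whose calls were each lost in 3 or more of the 16 alternative settings, in every case without control library 1 and without 1 or more IR libraries. H3f3a has processed copies in the genome that may share its reads. The number of such genes fell to 3, 3 and 4 without control library 1, 2 or 3 and to 2, 5 and 4 without IS library 1, 2 or 3.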

How the data were processed

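The culture table held expected counts per gene made by the authors with RSEM, as the name of the deposited table says, of which 97.8% were whole numbers. Aligner settings and the build of this table are not given in the sources used here. Among the tools in the submitters' processing notes are STAR, featureCounts, Trimmomatic and DESeq2, with no version, and builds GRCm38 and GRCm39. A further 3 columns, which fit no sample here, were left out. The IR columns of this table share their names with tumour libraries of the series and were placed by the table and group they belong to, with the number of the column as library number. Symbols came by identifier from the deposited tumour table, which named 52139 of 55487 genes. Counts were rounded, kept at 3 CPM in 3 of 9 libraries after the series text, TMM-scaled and fitted in edgeR 4.0.16 by its quasi-likelihood method (limma 3.58.1, R 4.3.3), with the 3 culture groups in 1 fit, no covariate and Benjamini-Hochberg adjustment over 10888 genes. The biological coefficient of variation was 0.0576. The SE of a log2 fold change is its size over the square root of F.

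Members, gene lists (41 in 4 classes, by symbol), markers and naming rules were chosen with earlier results of these data known. Named genes were up to 3 called members of a list in each direction, at least 1.3-fold, at a mean of 3 CPM or more and with groups that do not overlap, 12 in each direction outside the lists and 12 in each direction of the genes changed with IR and not with IS exosomes, markers, and receptors of named ligands. On simulated counts in this comparison the fit of 10819 genes recovered 94% of 100 genes changed 1.5-fold and 100% of 100 changed 2-fold, with 12 false calls. The changed genes were drawn only from those of a level well above the filter, and the spread was that estimated by the fit itself. These rates therefore do not cover genes of low level, of which several are named here. Alternatives were other scalings, DESeq2 1.42.0, other filters, fewer libraries and a replicate block. The range of depth was narrow, and counting intervals (exact, 95%) cover counting error only. Promoter windows were taken from RefSeq, which matched 126 of 183 named genes. The NF-kB motif was its consensus with ambiguous bases. Not every named gene is printed in the text, and some results are not reported here.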

Additional observations from a re-analysis of the deposited data

How the results depend on the processing

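The number of genes called, 1477, was 1067 to 1408 when 1 library was left out, 1186 with DESeq2, 1264 with only the IR and control libraries, 1622 with no filter on low counts and 1364 (673 higher, 691 lower) with the replicate number as a replicate block. Replicate numbers did not pair the samples: control and IR libraries of the same number had correlations of 0.064, 0.157 and -0.176 in their deviations from the group means. Under the block the genes changed with IR and not with IS exosomes numbered 114. Leaving out 1 library gave 514 to 697 genes higher, 538 to 715 lower, 38 to 57 transcription factors (38 without control library 3), 44 to 57 receptors, 79 to 95 secreted factors, 44 to 57 transporters, and 67 to 168 genes changed with IR and not with IS exosomes, 17 to 55 higher (17 without IR library 2, 24 without IR library 3, 21 and 19 without IS library 2 and 3) and 48 to 113 lower (50 without IR library 2, 53, 58 and 48 without IS library 1, 2 and 3). The genes of opposite direction, 9, numbered 2 to 9 when a library was left out and 26 with no filter on low counts, where more genes were tested. Of 175 called genes named, 41 lost their call in at least 1 of 16 alternatives and the others in none. Of 8 named genes that were not called, 4 passed under at least 1 alternative, and Egfr changed sign, from 0.08 to -0.03 without IR library 1 and -0.09 without control library 1 (log2, range -0.09 to 0.27 over the left-out libraries), and the cause was not tested. Genes that reached 3 CPM in fewer than 3 libraries were not tested.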
